A study of Mus musculus with 8 samples.

Results

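The 9 genes described here encode surface proteins through which dendritic cells switch T cells on or off, and the ubiquitin ligase MARCH1. They are Cd80, Cd86, Icosl, Cd40, Cd83, Cd274, Pdcd1lg2, Cd200 and March1 (now Marchf1). They were taken by symbol from a deposited table of 23420 genes, and all 9 were among the 12442 genes that passed a filter on low counts and were tested. The cells were mouse dendritic cells of 2 genotypes, Gata1 knock-out (KO) and Gata1 wild-type (WT), each at steady state or stimulated with LPS, a bacterial lipopolysaccharide that acts through toll-like receptor 4. There were 2 libraries in each of the 4 groups, which the design text calls biological replicates without saying whether they came from separate mice, so p-values measure only the spread between these libraries. The sources used here do not give the mouse strain, age, the way Gata1 was deleted, the tissue or culture of origin, or the LPS dose and duration.

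A T cell needs a second signal besides antigen, and CD80 and CD86 give it by binding CD28. CTLA-4 binds the same 2 ligands and takes that signal away. ICOS ligand, encoded by Icosl, acts on the related receptor ICOS, and CD40 is the receptor through which helper T cells license a dendritic cell. PD-L1 (Cd274) and PD-L2 (Pdcd1lg2) bind the inhibitory receptor PD-1, while CD200 acts on inhibitory receptors of myeloid cells. MARCH1 attaches ubiquitin to CD86 and MHC class II, which are then taken inside and degraded. CD83, a protein of mature dendritic cells, is known to counter MARCH1. Expression of CD80, CD86, CD40 and CD83 on the surface is the usual readout of maturation after LPS.

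Library totals ran from 8005151 to 15495249 reads. Gata1 had 0 reads in all 4 KO libraries, while the steady-state WT libraries had 1 and 10 and those of WT treated with LPS 0 and 1. The 10 reads were in WT steady-state replicate 2, and the other 3 WT libraries had at most 1, so Gata1 did not check the labels in either treatment. That replicate also held the basophil and mast cell genes Prss34, Cpa3 and Mcpt8 at 55.9, 16.7 and 10.3 CPM, against at most 1.55 CPM in any other library. All 10 listed dendritic cell markers had reads. Levels are given as CPM, reads of a gene scaled to the size of the library. Zbtb46, a transcription factor of conventional dendritic cells, was at 50.6 to 89.7 CPM at steady state, at 44.3 and 50.5 CPM in WT with LPS, and lowest in KO with LPS at 12.0 and 4.90 CPM. Itgax, which encodes CD11c, was at 80.3 and 78.8 CPM in KO with LPS and at 214 to 645 CPM elsewhere. Itgam, of the same list, was higher in KO than in WT with LPS, at 1059 and 798 CPM against 396 and 395 CPM. Summed over the 10 dendritic cell markers, the KO LPS libraries (5367 and 10415 CPM) and WT LPS libraries (15488 and 9215 CPM) overlapped. Cd74, H2-Aa and H2-Ab1 made up most of these sums. Summed over 10 macrophage markers, the KO LPS libraries held 5794 and 6351 CPM and the WT LPS libraries 3525 and 1859 CPM, with no marker at 0 in all libraries. The 8 mast cell and basophil markers, 1 of them at 0 throughout, summed to 16.0 and 34.3 CPM in KO and 142 and 110.1 CPM in WT with LPS. Those sums were nearly all Gata2 (10.4 and 27.7 CPM in KO, 135 and 67.6 in WT) and Kit (5.64 and 6.27 in KO, 6.48 and 41.9 in WT), while each of the other 6 markers was at or below 0.247 CPM in every LPS library. B cell markers summed to at most 31.4 CPM, T cell markers to at most 5.56 CPM and neutrophil markers to at most 256 CPM, the first and last of these in WT steady-state replicate 2. In bulk RNA, fewer cells of a type and less RNA per cell cannot be told apart. The part of these marker differences in the results below was not tested.

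With LPS, the genotypes differed in Cd86 and March1. Cd86 was lower and March1 higher in KO, and these 2 of the 9 genes passed edgeR's adjusted threshold of 0.05, where 0.772% of all genes tested did (0.281% higher and 0.49% lower). The KO and WT libraries did not overlap in 7 of the 9 genes with LPS (36.1% of all genes), with 6 lower (18.1% of all genes) and 1 higher in KO (18%). Their median log2 difference was -1.52, against -0.01 over all genes. At an unadjusted edgeR p under 0.05 there were 7 members, where 16.9% of all genes were. At steady state 0 of the 9 passed in edgeR and 0 in DESeq2, 0 had an unadjusted edgeR p under 0.05 (2.63% of all genes), and the median log2 difference was -0.21. In that comparison 0% of all genes passed in edgeR, and 27 genes did in DESeq2. The groups did not overlap in 5 of the 9 genes at steady state, a share near the 45.5% of all genes, with 1 higher (22.1%) and 4 lower (23.3%).

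LPS raised Cd86 and Cd200 in WT cells, 2 of the 9 genes, where 6.49% of all genes passed (3% higher and 3.49% lower). In KO cells LPS raised Cd274 and March1 and lowered Cd83, 3 of the 9 genes, where 11.8% of all genes passed (5.3% higher and 6.46% lower). At an unadjusted edgeR p under 0.05 there were 5 members in each genotype, where 26.7% of all genes were in WT and 32.8% in KO. The LPS and steady-state libraries did not overlap in 5 members in WT, 4 higher and 1 lower, where 56.5% of all genes did not (27.5% higher and 29.1% lower). In KO they did not overlap in 6 members, 3 higher and 3 lower, where 72.6% of all genes did not (34.4% higher and 38.2% lower), so both shares are near those of all genes. The median log2 difference of the 9 was 1.0 in WT and -0.06 in KO, against 0.00 and -0.02 over all genes. The WT and KO LPS responses are each measured against their own steady-state libraries. Their difference, the interaction, was called in 0 of the 9 genes by edgeR, where 0% of all genes passed. DESeq2, which called more genes than edgeR over all genes in each comparison, called it for 104 of all genes and for Cd86 alone of the 9. Of the 9, 6 had an unadjusted edgeR p under 0.05, where 6.41% of all genes did.

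**Figure D1:**
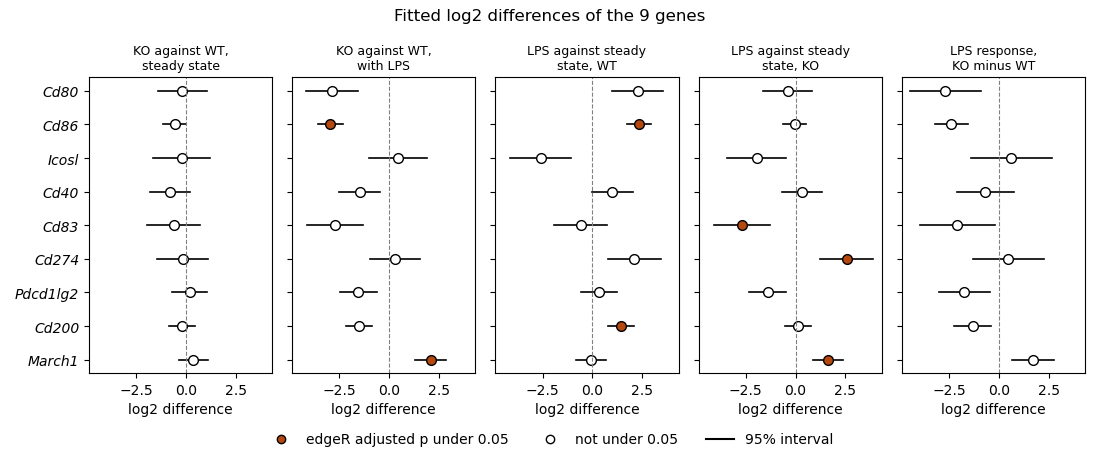
Fitted log2 differences of the 9 genes (x axis) in 5 comparisons, with 95% intervals, from edgeR over 8 libraries. Filled points passed an adjusted p of 0.05, and these are Cd86 and March1 between genotypes with LPS, Cd86 and Cd200 for LPS in WT, and Cd83, Cd274 and March1 for LPS in KO.

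Cd86 (ENSMUSG00000022901.13, GRCm38 chromosome 16, 36603869 to 36666081, minus strand) encodes a CD28 ligand and a target of MARCH1. It stood at 111.0 and 110.3 CPM in WT at steady state and at 67.1 and 82.0 CPM in KO. After LPS it stood at 597 and 520 CPM in WT and at 78.8 and 64.7 CPM in KO. Both WT LPS libraries were thus far above every other library, and the KO libraries were alike with and without LPS. LPS raised Cd86 in WT by log2 2.34 ± 0.26 (SE, edgeR adjusted p = 0.00542). In KO the LPS difference was log2 -0.06 ± 0.25 (edgeR adjusted p = 0.894), with a 95% interval from -0.63 to 0.52, and it turned to 0.12 without KO steady-state replicate 2 and to 0.06 when KO LPS replicate 2 was left out. The KO difference from WT with LPS was log2 -2.96 (edgeR adjusted p = 0.0138, interval -3.58 to -2.34), and at steady state it was -0.57 (edgeR adjusted p = 1, interval -1.15 to 0.01). The interaction, log2 -2.39 ± 0.35, did not pass (edgeR adjusted p = 0.416, unadjusted 0.000201). DESeq2 put it at log2 -2.38 and called it (adjusted p = 2.09e-07).

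The Cd86 call between genotypes rested on the spread shared by all 8 libraries. It was lost with only the 4 LPS libraries in the fit (edgeR adjusted p = 0.251). It was also lost when a single KO library, of either treatment, or WT steady-state library was left out (0.0572 to 0.130), while log2 stayed between -3.11 and -2.84. Its LPS call in WT was lost without WT steady-state replicate 1 (edgeR adjusted p = 0.0720) or replicate 2 (0.0585).

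Cd80 (ENSMUSG00000075122.5, chromosome 16, 38455561 to 38496335, plus strand), the other CD28 ligand, lay at 57.4 and 86.4 CPM in WT and at 56.3 and 69.0 CPM in KO at steady state. With LPS its WT level was 240 and 459 CPM, and its KO level 70.2 and 24.3 CPM. The WT LPS libraries were above all others. The genotype difference with LPS, log2 -2.88 ± 0.56 (interval -4.20 to -1.56), was about as large as that of Cd86 and did not pass (edgeR adjusted p = 0.0712). It was -3.28 without WT LPS replicate 1. It passed in DESeq2, which called 1058 of all genes in this comparison where edgeR called 96. Left-out libraries moved it from -3.85 (KO LPS replicate 1) to -2.34 (KO LPS replicate 2) and -2.33 (WT LPS replicate 2), with no call in those 3 cases. The LPS difference in WT was log2 2.28 ± 0.55 (edgeR adjusted p = 0.0547), and it passed without KO LPS replicate 1 (0.0324), KO LPS replicate 2 (0.0317) or WT LPS replicate 1 (0.0374). In KO it was log2 -0.40 ± 0.53 (edgeR adjusted p = 0.615), or 0.14 without KO LPS replicate 2.

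Icosl (ENSMUSG00000000732.9, chromosome 10, 78069302 to 78083913, plus strand) had lower values with LPS in both genotypes. Its level was 191 and 198 CPM in WT and 155 and 180.3 CPM in KO at steady state, against 12.0 and 52.0 CPM in WT and 57.9 and 28.2 CPM in KO with LPS. Every LPS library was below every steady-state library in both genotypes. The LPS difference was log2 -2.59 ± 0.65 in WT and -1.96 ± 0.64 in KO (edgeR adjusted p = 0.0600 and 0.0863). Neither passed, although DESeq2 called both. The WT difference was -1.89 without WT LPS replicate 1 and -4.01 without WT LPS replicate 2. With only the KO libraries in the fit the KO difference passed (edgeR adjusted p = 0.0298). That fit also called more of all genes than the fit over all libraries. Between genotypes with LPS the libraries overlapped, at log2 0.42 ± 0.62 (edgeR adjusted p = 0.801). It was 1.85 when WT LPS replicate 2 was left out (0.0937), -0.20 when KO LPS replicate 1 was left out and -0.27 when WT LPS replicate 1 was.

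Cd40 (ENSMUSG00000017652.16, chromosome 2, 165055627 to 165072948, plus strand) held 45.1 and 74.7 CPM in WT and 30.8 and 38.0 CPM in KO. With LPS it was at 71.9 and 168 CPM in WT and 38.0 and 48.5 CPM in KO. The KO libraries were below the WT libraries in both treatments. The genotype difference was log2 -0.80 ± 0.43 at steady state (edgeR adjusted p = 1) and -1.47 ± 0.44 with LPS (0.153). The latter passed in DESeq2. It was -1.96 without WT LPS replicate 1 and only -0.73 without WT LPS replicate 2. The LPS difference was log2 1.0 ± 0.43 in WT and 0.33 ± 0.43 in KO, and neither passed (edgeR adjusted p = 0.191 and 0.616). The interval in WT ran from -0.01 to 2.02, and the difference was 0.26 when WT LPS replicate 2 was left out.

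Cd83 (ENSMUSG00000015396.4, chromosome 13, 43784775 to 43803132, plus strand) was abundant at steady state, at 662 and 934 CPM in WT and 510.4 and 523 CPM in KO. The LPS libraries held 290 and 766 CPM in WT and 116 and 45.5 CPM in KO. The KO LPS libraries were below all 6 others. In KO cells Cd83 fell with LPS by 2.68 ± 0.60 on the log2 scale (edgeR adjusted p = 0.0337). In WT the LPS libraries straddled the lower steady-state library and the difference was log2 -0.60 ± 0.57 (edgeR adjusted p = 0.524). The genotypes differed with LPS by log2 -2.71 ± 0.60 (edgeR adjusted p = 0.0887). This passed in DESeq2 and was -3.25 without WT LPS replicate 1, the lower WT library. It was -1.84 without WT LPS replicate 2 (edgeR adjusted p = 0.110) and -3.54 without KO LPS replicate 1 (0.157). The call in KO was lost without KO LPS replicate 2, or any 1 steady-state library of either genotype (edgeR adjusted p = 0.0718 to 0.169), and its size ran from -3.51 to -2.18 without single libraries, the extremes being those without KO LPS replicate 1 and 2.

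**Figure D2:**
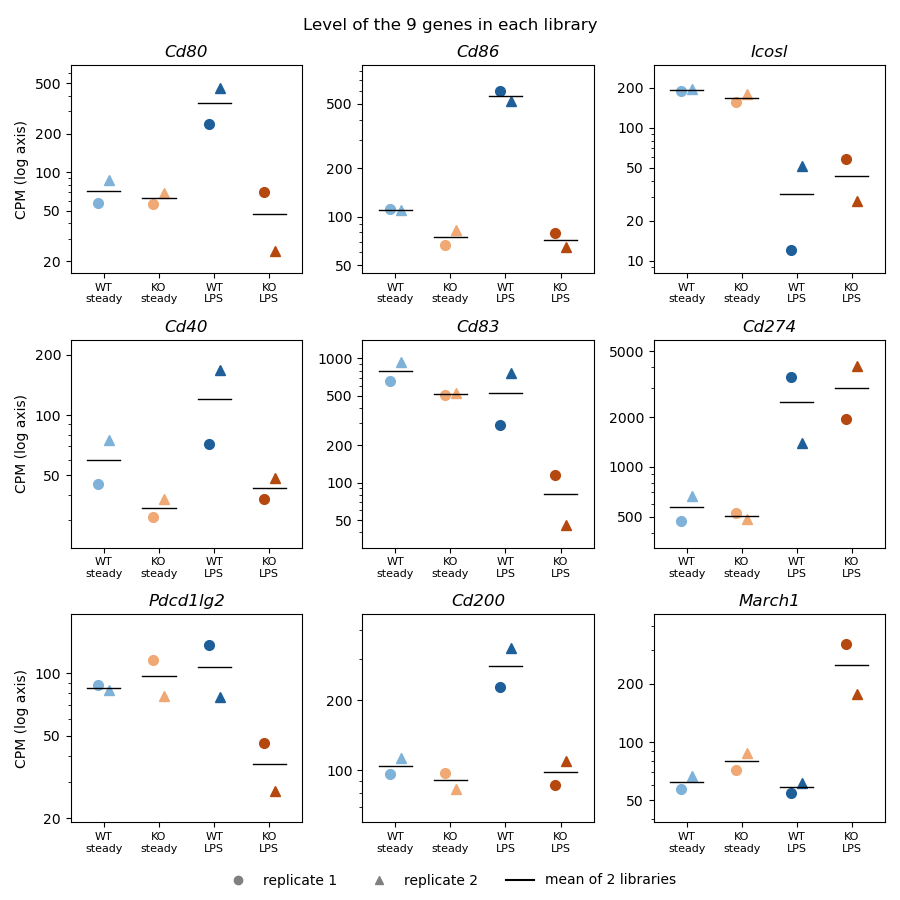
CPM of each of the 9 genes (y axis, log scale) in the 8 libraries, with circles for replicate 1, triangles for replicate 2 and bars for the mean of 2. The WT LPS libraries stand above all others for Cd80, Cd86 and Cd200, and the KO LPS libraries stand above all others for March1 and below all others for Cd83 and Pdcd1lg2.

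Cd274 and Pdcd1lg2 lie next to each other on chromosome 19 of GRCm38, both on the plus strand. Cd274 (ENSMUSG00000016496.7) spans 29367455 to 29388095 and Pdcd1lg2 (ENSMUSG00000016498.10) spans 29410919 to 29471161. Cd274 was at 469 and 671 CPM in WT and 529 and 481 CPM in KO at steady state. With LPS it reached 3518 and 1390.2 CPM in WT and 1954 and 4058 CPM in KO. All 4 LPS libraries were above all 4 steady-state libraries, and the genotypes overlapped in both treatments. LPS raised Cd274 in KO by log2 2.57 ± 0.57 (edgeR adjusted p = 0.0324). The WT difference was log2 2.11 ± 0.56 and did not pass (edgeR adjusted p = 0.0692), but did in DESeq2. It was 2.62 without WT LPS replicate 2. The interaction was log2 0.47 ± 0.76 (edgeR adjusted p = 1, interval -1.32 to 2.25), so the 2 responses were not shown to differ. With LPS the genotype difference was log2 0.29 ± 0.54 (edgeR adjusted p = 0.846), with 1.11 when WT LPS replicate 1 was left out, -0.35 when KO LPS replicate 2 was and -0.22 when WT LPS replicate 2 was. The call in KO was lost without KO LPS replicate 2 or any 1 of the 4 steady-state libraries (edgeR adjusted p = 0.0677 to 0.196). Its size was 1.93 without KO LPS replicate 2.

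Pdcd1lg2 encodes the second PD-1 ligand. It lay at 87.5 and 82.9 CPM in WT and 116 and 77.4 CPM in KO at steady state. The LPS libraries held 137 and 77.0 CPM in WT and 46.1 and 26.9 CPM in KO, so that the KO LPS libraries were the lowest of the 8. The LPS difference in KO was log2 -1.40 ± 0.39 (edgeR adjusted p = 0.0585, interval -2.31 to -0.49) and that in WT was 0.32 ± 0.38 (0.609). The KO difference passed in DESeq2 and with only the KO libraries in the fit (edgeR adjusted p = 0.0494). Both of these called more of all genes than edgeR over all libraries. Between genotypes with LPS it was at log2 -1.55 ± 0.39 (edgeR adjusted p = 0.111), which DESeq2 called. The reads of Cd274 per read of Pdcd1lg2, a ratio free of library scaling, were 5.36 and 8.09 in WT and 4.57 and 6.22 in KO at steady state. With LPS they were 25.7 and 18.1 in WT and 42.4 and 151 in KO. The KO LPS ratios were above both WT LPS ratios, and they lay far apart from each other.

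The upstream sequences of this pair are shown because the genes are neighbours whose values with LPS went apart in KO cells. They are the 250 bases before the RefSeq start (GRCm38.p6), chr19:29367188-29367437 for Cd274 and chr19:29410669-29410918 for Pdcd1lg2, both on the plus strand. Capitals mark matches on either strand to 6 motifs. The NF-kB site, the ISRE and the TATA box are given by name, the last searched as TATAAA. The GATA motif was searched only as AGATAA, a form of the site bound by the GATA factors, and other forms were not searched. The letters for PU.1, a myeloid factor, were GAGGAA. For AP-1, which is induced by many stimuli, they were TGANTCA.
Cd274: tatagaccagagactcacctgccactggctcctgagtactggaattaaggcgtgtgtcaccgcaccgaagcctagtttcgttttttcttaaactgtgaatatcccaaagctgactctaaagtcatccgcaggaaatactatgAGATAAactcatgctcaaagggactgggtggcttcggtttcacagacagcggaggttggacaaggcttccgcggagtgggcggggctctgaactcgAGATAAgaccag
Pdcd1lg2: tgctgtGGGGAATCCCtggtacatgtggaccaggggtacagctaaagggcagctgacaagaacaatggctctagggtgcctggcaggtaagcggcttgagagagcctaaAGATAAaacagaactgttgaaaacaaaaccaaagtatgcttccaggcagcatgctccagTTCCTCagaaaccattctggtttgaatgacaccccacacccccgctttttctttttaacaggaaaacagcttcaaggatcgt
Cd274 held the GATA motif at 108 and 12 bases before the start. Pdcd1lg2 held a NF-kB match at 244 bases, the GATA motif at 141 bases and that of PU.1, on the other strand, at 82 bases before the start. Of 32851 such windows over all genes, 7.25% held the NF-kB motif, 9.99% the GATA motif, 23.3% that of PU.1, 6.75% that of AP-1, 2.98% the ISRE and 12.4% the TATA box. These are letter matches, and binding was not measured.

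Cd200 (ENSMUSG00000022661.14, chromosome 16, 45382135 to 45409053, minus strand), the ligand of inhibitory CD200 receptors, was close in all steady-state libraries, at 96.5 and 113 CPM in WT and 98.0 and 83.6 CPM in KO. In WT it reached 228 and 335 CPM with LPS, and in KO 86.8 and 110.0 CPM. Only the WT LPS libraries stood apart. LPS raised it in WT by log2 1.42 ± 0.28 (edgeR adjusted p = 0.0308), and the LPS difference in KO was 0.12 ± 0.28 (0.793, interval -0.54 to 0.77), or -0.09 when KO LPS replicate 2 was left out. The call in WT was lost without KO steady-state replicate 1 (edgeR adjusted p = 0.0812) or 2 (0.0825), without WT steady-state replicate 1 (0.234) or 2 (0.160), and with only the WT libraries in the fit (0.122). The genotype difference with LPS was log2 -1.52 ± 0.29 (edgeR adjusted p = 0.0678). It passed in DESeq2 and was -1.77 without WT LPS replicate 1.

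March1 (ENSMUSG00000036469.16, chromosome 8, 65617900 to 66471637, plus strand) was the 1 member called higher in KO than WT with LPS. It lay at 57.0 and 66.9 CPM in WT and 71.8 and 88.2 CPM in KO at steady state. With LPS it was at 54.8 and 61.9 CPM in WT and at 322 and 176 CPM in KO. Both KO LPS libraries were above all others, while the WT libraries overlapped between treatments. LPS raised March1 in KO by log2 1.64 ± 0.33 (edgeR adjusted p = 0.0241). In WT the difference was log2 -0.09 ± 0.32 (edgeR adjusted p = 0.883, interval -0.83 to 0.66), with 0.04 when WT steady-state replicate 2 was left out. The genotype difference with LPS was log2 2.09 (edgeR adjusted p = 0.0445, interval 1.32 to 2.87), and at steady state it was 0.37 ± 0.32 (1). The interaction was log2 1.72 ± 0.45 (edgeR adjusted p = 0.579).

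The March1 calls were not stable to the choice of libraries. Between genotypes the call was lost with only the 4 LPS libraries in the fit (edgeR adjusted p = 0.357) and without each library other than WT LPS replicate 1 (0.0585 to 0.128), while log2 stayed between 1.59 and 2.44. The LPS call in KO was lost without KO LPS replicate 1 (edgeR adjusted p = 0.0574), without KO steady-state replicate 1 (0.177) or 2 (0.133), and without either WT steady-state library (0.0553 each). The libraries do not mark strand. An antisense RNA, Gm15354, overlaps 7.64% of the merged March1 exons, and another, AC119228.1, overlaps 14.1% of those of Cd274. Reads of these partners cannot be told apart from those of the 2 genes.

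March1 has 3 starts in the RefSeq promoter table, and the gene counts do not show which was used. The 250 bases before the first (GRCm38.p6, chr8:65617790-65618039, plus strand) are shown for the gene called higher in KO, beside those of Cd80 (chr16:38458683-38458932, plus strand), whose KO values were lower, with capitals as above. The Cd80 window lies inside the gene span given above, which begins at 38455561, and the bases before that position were not searched. Part of the March1 window, with its PU.1 match, likewise lies inside the March1 span, which begins at 65617900.
March1: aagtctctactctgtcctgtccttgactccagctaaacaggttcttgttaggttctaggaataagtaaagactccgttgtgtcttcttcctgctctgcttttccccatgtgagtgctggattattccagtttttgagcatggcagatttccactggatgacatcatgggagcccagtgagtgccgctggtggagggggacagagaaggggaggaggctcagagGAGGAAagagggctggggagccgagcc
Cd80: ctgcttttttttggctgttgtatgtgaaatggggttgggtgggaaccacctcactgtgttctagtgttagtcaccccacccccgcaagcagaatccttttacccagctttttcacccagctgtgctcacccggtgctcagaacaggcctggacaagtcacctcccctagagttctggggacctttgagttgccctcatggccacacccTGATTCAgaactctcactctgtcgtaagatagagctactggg
The March1 window held the PU.1 motif at 27 bases before the start, and that of Cd80 held the AP-1 motif at 42 bases. The GATA letters AGATAA were in neither of these 2 windows nor in the other 2 of March1. They were in 3 of the 6 members with a window, Cd274, Pdcd1lg2 and Cd200. Other forms of the GATA site, such as the agatag near the end of the Cd80 window, were not searched. Windows for Cd86, Cd40 and Cd83 were not used here.

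Cd86 and March1 were also set against each other within a library, since one product removes the other from the surface. The read ratio needs no scaling between libraries. It was 1.95 and 1.65 reads of Cd86 per read of March1 in WT at steady state and 0.935 and 0.930 in KO. With LPS it was 10.9 and 8.40 in WT and 0.245 and 0.367 in KO. No library of one group overlapped another group in this ratio. It was higher with LPS in WT and lower with LPS in KO, and the 2 genes were chosen with these values in view, so no test is given. Cd83 per read of March1 was 11.6 and 14.0 in WT and 7.11 and 5.93 in KO at steady state, and 5.28 and 12.4 in WT and 0.360 and 0.258 in KO with LPS.

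**Figure D3:**
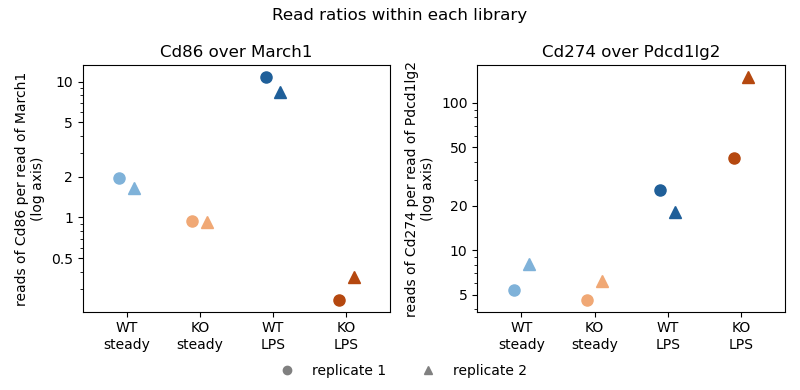
Reads of Cd86 per read of March1 (left) and of Cd274 per read of Pdcd1lg2 (right) in each of the 8 libraries, on log axes, with circles for replicate 1 and triangles for replicate 2. With LPS the first ratio is 8.40 to 10.9 in WT and 0.245 to 0.367 in KO, and the second is highest in the KO LPS libraries.

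Levels of different genes were compared per kb of merged exons (CPM per kb). At steady state the order in WT was Cd83 (310.3 ± 74.9, SD, n = 2), Cd274 (157 ± 39.3), Pdcd1lg2 (43.5 ± 1.67), Icosl (42.0 ± 1.11), Cd200 (31.6 ± 3.56), Cd86 (30.2 ± 0.131), Cd80 (19.4 ± 5.53), Cd40 (17.6 ± 6.16) and March1 (8.67 ± 0.971). The libraries of Pdcd1lg2 and Icosl, of Cd200 and Cd86, and of Cd80 and Cd40 overlapped, so these neighbours were not separated. In KO at steady state the order was the same but for the last pair, March1 (11.2 ± 1.63) and Cd40 (10.1 ± 1.48), and only this pair and Cd86 (20.4 ± 2.88) with Cd80 (16.9 ± 2.42) overlapped as neighbours.

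With LPS Cd274 led in both genotypes, at 677 ± 415 CPM per kb in WT and 829.9 ± 411 in KO. In WT it was followed by Cd83 (205 ± 131), Cd86 (153 ± 15.04), Cd80 (94.3 ± 41.8) and Cd200 (84.7 ± 22.8). Pdcd1lg2 (54.5 ± 21.5) and Cd40 (35.2 ± 19.9) came next, and March1 (8.17 ± 0.697) and Icosl (6.93 ± 6.12) were last and overlapped each other. Cd83 overlapped Cd86, and Cd80 overlapped Cd200, Cd200 Pdcd1lg2, and Pdcd1lg2 Cd40, while Cd40 and March1 did not overlap. In KO the second place was held by March1 (34.8 ± 14.4), which overlapped Cd83 (31.4 ± 19.3), and Cd83 overlapped Cd200 (29.6 ± 4.94). Cd86 (19.6 ± 2.72), Pdcd1lg2 (18.6 ± 6.90), Cd80 (12.8 ± 8.76), Cd40 (12.7 ± 2.17) and Icosl (9.32 ± 4.55) each overlapped the next. Of the summed CPM of the 9 genes, Cd274 took 26.4% and 28.7% in WT and 32.4% and 29.7% in KO at steady state. Its share was 68.3% and 36.3% in WT and 70.6% and 88.6% in KO with LPS. The 2 WT LPS libraries differed widely in this share.

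**Figure D4:**
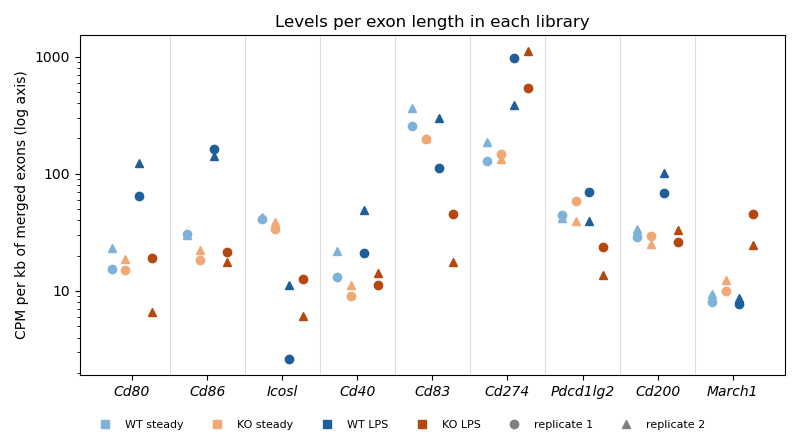
CPM per kb of merged exons (y axis, log scale) of the 9 genes in the 8 libraries, coloured by group, with circles for replicate 1 and triangles for replicate 2. With LPS Cd274 is the highest gene in all 4 libraries, and March1 lies at 34.8 ± 14.4 in KO against 8.17 ± 0.697 in WT.

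Other ligands of T cells were taken from a list of costimulatory and adhesion molecules. Of its 18 tested members 2 were called lower in KO with LPS and 0 higher, where 0.49% and 0.281% of all genes were, and the median log2 was -1.16 against -0.01 over all genes. The called genes were Cd70, the ligand of CD27, and Slamf1, a self-binding receptor of the CD2 family. Cd70 was at 15.6 and 9.58 CPM in WT and 0.903 and 0.459 in KO with LPS (log2 -4.15 ± 0.57, edgeR adjusted p = 0.0366). Slamf1 was at 38.7 and 56.8 CPM in WT and 4.85 and 1.53 CPM in KO (log2 -3.87 ± 0.60, edgeR adjusted p = 0.0442). Both calls were lost when a single KO library, of either treatment, or WT steady-state library was left out (edgeR adjusted p = 0.0976 to 0.153). Tnfsf8, the CD30 ligand, was at 77.3 and 422 CPM in WT and 35.6 and 15.2 in KO with LPS (edgeR adjusted p = 0.0983). Tnfsf15, a TNF family ligand of the receptor DR3, rose with LPS in WT (log2 6.88 ± 0.76, edgeR adjusted p = 0.00542) and in KO (4.95 ± 0.71, 0.00975). Pvr, a ligand of the T cell receptors DNAM-1 and TIGIT, also rose in both, by log2 1.59 ± 0.30 and 1.78 ± 0.30 (0.0261 and 0.0149 by edgeR, adjusted). Cd209a, a C-type lectin gene, fell in both genotypes, from 26.7 and 26.9 CPM to 0 and 0.0618 CPM in WT and from 16.2 and 102.6 CPM to 0 in both KO libraries (edgeR adjusted p = 0.0188 and 0.0121). Cd24a differed with LPS in KO by log2 -3.05 ± 0.67 (edgeR adjusted p = 0.0307) and in WT by -1.14 ± 0.62 (0.281). Without single libraries the Cd209a call was lost in 3 cases in WT and 1 in KO (edgeR adjusted p up to 0.0975) and that of Cd24a in 5 cases (0.0702 to 0.146). Alcam, the ligand of CD6, rose in WT by log2 1.89 ± 0.25 (edgeR adjusted p = 0.00917). Without single libraries these LPS calls were lost in 1 case for Tnfsf15, 4 for Pvr and 2 for Alcam in WT (edgeR adjusted p up to 0.209), and in 2 for Tnfsf15 and 3 for Pvr in KO (up to 0.128).

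Among 11 tested genes of other B7 family and checkpoint ligands, 0 were called between genotypes with LPS (median log2 -0.35). Between steady state and LPS in KO, 5.3% of all genes were called higher and 6.46% lower. The list's 1 call was Havcr2, which encodes TIM-3 and fell with LPS in KO by 2.72 ± 0.61 on the log2 scale (edgeR adjusted p = 0.0327). It was lost without 6 of the 8 libraries in turn (edgeR adjusted p up to 0.196). The gene for VISTA, an inhibitory B7 relative listed as 4632428N05Rik, was at 356 and 152 CPM in WT with LPS, against 634 and 655 CPM in KO (edgeR adjusted p = 0.153). Sirpa, the receptor of CD47, was the most abundant of the list.

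Of 19 tested genes of MARCH ligases and of CD86 and MHC class II trafficking, 0 were called between genotypes with LPS (median log2 -0.03). March8, the closest relative of March1, was at 71.6 and 61.6 CPM in WT and 86.1 and 89.7 CPM in KO with LPS (log2 0.40 ± 0.21, edgeR adjusted p = 0.384). At steady state the March8 difference was larger, with 55.2 and 53.8 CPM in WT and 106 and 95.3 CPM in KO (log2 0.89 ± 0.21), and did not pass. March3 and Ciita, the latter the master activator of MHC class II genes, had lower values with LPS in both genotypes. In WT the differences were log2 -1.13 ± 0.39 and -1.13 ± 0.57 and did not pass (edgeR adjusted p = 0.126 and 0.246). In KO, where 11.8% of all genes passed, they were -1.70 ± 0.40 and -2.96 ± 0.60 and passed (edgeR adjusted p = 0.0369 and 0.0257). Each of these calls was lost without 6 of the 8 libraries in turn (edgeR adjusted p up to 0.225 and 0.157).

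The next list held receptors on T cells for these ligands, together with CD200 receptors, which myeloid cells carry. Cd40lg had 0 reads in all libraries and Ctla4 at most 5, and neither was tested. Of 8 tested genes 0 were called between genotypes with LPS. For LPS in KO 1 was called lower, where 6.46% of all genes were. This was Cd200r3, a relative of the CD200 receptor, at log2 -2.53 ± 0.84 in WT (edgeR adjusted p = 0.115) and -3.53 ± 0.88 in KO (0.0445). Its call was lost without 6 of the 8 libraries in turn (edgeR adjusted p up to 0.232). The inhibitory CD200 receptor gene Cd200r1 was at 63.3 and 22.8 CPM in WT and 105 and 142 CPM in KO with LPS (log2 1.53 ± 0.45, edgeR adjusted p = 0.152). Pdcd1, which encodes PD-1, was at 16.1 and 18.5 CPM in WT and 6.20 and 14.4 CPM in KO at steady state, and at most 6.55 CPM in any LPS library.

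Of 23 tested inducers and regulators, 0 were called between genotypes with LPS (median log2 -0.44). Between steady state and LPS, 6.49% of all genes were called in WT and 11.8% in KO. LPS raised Cd14, the LPS co-receptor gene, by log2 3.50 ± 0.54 in WT and 2.98 ± 0.52 in KO (edgeR adjusted p = 0.0140 and 0.0164). These calls were lost without 2 and 3 of the 8 libraries (edgeR adjusted p up to 0.109 and 0.134). Relb, an NF-kB subunit of dendritic cell maturation, fell with LPS in KO by 1.63 ± 0.34 on the log2 scale (edgeR adjusted p = 0.0282), lost without 6 of the 8 libraries (up to 0.153). In WT the LPS difference of Relb was log2 -0.99 ± 0.34 (edgeR adjusted p = 0.121). Irf8, a factor of dendritic cell development, was at 2021 and 2290.3 CPM in WT and 567 and 266 CPM in KO with LPS (log2 -2.37 ± 0.42, edgeR adjusted p = 0.0608). Il10, whose product is known to induce March1, had at most 45 reads and was not tested. With LPS it was at 0.793 and 2.78 CPM in WT and at 0 and 0.459 CPM in KO.

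The genes whose pattern was most like that of 4 members were found by the root mean square difference of log2 values over the 8 libraries, each gene centred on its mean, among 8867 genes. For Cd86 these were Stk39, Pmvk and Ktn1, at 0.248, 0.353 and 0.403 log2 units, where the median gene was at 1.27. Stk39, which encodes a stress-linked kinase, was at 190 and 103 CPM in the WT LPS libraries and at 15.8 to 31.0 CPM in the 6 others. Cd80 held the ninth place for Cd86, at 0.488, and Cd200 stood at 0.630. For March1 the closest were Gsr, the glutathione reductase gene, at 0.214, then Asah2 and Fanca at 0.261 and 0.271 (median gene 0.931). Gsr reached 617 and 521 CPM in KO with LPS, against 129 to 178 CPM elsewhere. For Cd274 they were Ppfibp2, Errfi1 and Slc11a2 at 0.201, 0.204 and 0.222 (median gene 1.22). For Cd40 they were Zmynd15, Gucd1 and D16Ertd472e at 0.257, 0.260 and 0.309 (median gene 0.834), and Cd200 was sixth at 0.321.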

How the data were processed

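The authors deposited 1 table of whole-number read counts per gene symbol, not normalized, with 1 column per library. Build mm10, edgeR 3.6.8, Subread 1.4.3 with featureCounts, and TopHat2 2.0.8 appear in the submitters' processing notes, with no roles stated. Per the labels' protocols libraries were made with a TruSeq v2 kit. The sources used here do not say how reads matching several genes were treated. Groups and replicate numbers came from the sample titles.

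The tests used edgeR 4.0.16 (R 4.3.3): filterByExpr (minimum count 10, minimum total 15), TMM factors, and the quasi-likelihood F test over all 8 libraries with 1 coefficient per group. Degrees of freedom were 4 (residual) and 3.40 (prior). Genes were called at a two-sided Benjamini-Hochberg adjusted p under 0.05 over 12442 genes. SE is the log2 difference divided by the square root of F, and intervals are 95%. CPM uses TMM-scaled library sizes. Exon lengths and positions are from GENCODE M21 (GRCm38), and sequences from RefSeq (GRCm38.p6), which had windows for 6 of the 9 genes.

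The 9 members and the lists were chosen with earlier results of these data known. The rule for other names gave Gata1, up to 4 members of each list with the smallest adjusted p between genotypes with LPS and up to 2 of the most abundant, the 3 nearest patterns of 4 members, and defining cell markers. Called genes of a list, and Cd40lg, Ctla4 and Il10, were named after their values were seen. The procedure was tested on simulated counts. Alternatives were RLE factors, no filter or a stricter one, DESeq2 1.42.0, only the libraries compared, a replicate block and each library left out.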

Additional observations from a re-analysis of the deposited data

How the results depend on the processing

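Over all genes, the calls at steady state, between genotypes with LPS, for LPS in WT, for LPS in KO and for the interaction were 0, 96, 807, 1463 and 0. With no filter they were 9, 538, 1497, 2223 and 3, and with DESeq2 27, 1058, 1995, 2846 and 104. With only the libraries compared the first 4 were 1, 0, 229 and 2316. Without single libraries they ranged from 0 to 1, 1 to 826, 70 to 3629, 143 to 3345 and 0 to 0. Of the 9 members, 2 were called between genotypes with LPS, 2 for LPS in WT and 3 for LPS in KO. These counts were 6, 5 and 5 with no filter, 7, 5 and 5 with DESeq2, 0, 1 and 5 with only the libraries compared, and ranged from 0 to 6, 0 to 4 and 0 to 5 without single libraries. At steady state and for the interaction 0 members were called, with 1 interaction call in DESeq2, and 0 to 0 without single libraries. RLE factors and the stricter filter changed none of the member counts. For the calls that moved, the cause was not tested. Fewer libraries leave fewer degrees of freedom, but the counts did not only fall. With only the libraries compared, LPS in KO had 2316 calls against 1463.

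The titles give the groups the same replicate numbers, but these were not shown to pair the samples. The correlation of replicate deviations over genes ran from -0.648, between the LPS groups, to 0.270. A fit blocked on the replicate number called 0, 8, 465, 776 and 0 genes in the order above, and members called between genotypes with LPS, in WT and in KO were 0, 1 and 1. Cd86 and March1 then had an adjusted p of 0.0536 and 0.112 between genotypes with LPS. For LPS in WT, Cd200 was lost (0.0561). For LPS in KO, Cd83 (0.0656), Cd274 (0.0636) and March1 (0.0530) were lost, and the 1 member called was Pdcd1lg2 (0.0419). A crossed pairing of the LPS groups, added after seeing the data, called 273 genes and 4 members there.

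Without single libraries, log2 differences changed sign at steady state for Cd80 (-0.47 to 0.11), Cd274 (-0.42 to 0.093) and Pdcd1lg2 (-0.14 to 0.43), and between genotypes with LPS for Icosl (-0.27 to 1.85) and Cd274 (-0.35 to 1.11). They did so for LPS in WT for Pdcd1lg2 (-0.14 to 0.68) and March1 (-0.18 to 0.044), and for LPS in KO for Cd80 (-1.37 to 0.14), Cd86 (-0.21 to 0.12) and Cd200 (-0.087 to 0.28). In the interaction they did so for Icosl (-0.065 to 2.06), Cd40 (-1.16 to 0.072) and Cd274 (-0.18 to 1.28). None of these 13 differences was called. With 2 libraries a group, differences of the size of the gap between WT LPS libraries could not be resolved.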
